A study of Mus musculus with 9 samples.

Results

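The cadherin superfamily genes described here are the classical cadherins and related Cdh genes, the protocadherins, and the giant Fat, Dachsous and Celsr cadherins. They were chosen by name: every row whose Ensembl identifier maps to a protein-coding symbol made of Cdh and a number, beginning with Pcdh, or equal to Fat1 to Fat4, Dchs1, Dchs2 or Celsr1 to Celsr3. This gave 101 of the 55357 rows. The rule itself uses no measured value, although it was set with earlier results of these data known. The study sorted keratinocytes from mouse back skin into 3 populations and sequenced their poly(A) RNA, with 3 libraries per population. Its title concerns keratinocytes of touch domes, the small epidermal patches where Merkel cells meet sensory nerve endings, that express tenascin-C, and how far they share features of other epidermal lineages. Every library, whichever its population, came from TNC-CREER; tdTomato mice on a C57BL/6 background, given tamoxifen at 100 µg per g of body weight on postnatal days 51 and 52 and killed at postnatal day 60. In these mice the tenascin-C gene drives a tamoxifen-dependent Cre recombinase that switches on a red reporter, so the mark follows Tnc expression around the injections and not touch dome position as such. Touchdome cells were EPCAM+, integrin α6+, SCA1+ and tdTomato+. HF (hair follicle) cells were EPCAM+ and integrin α6+ but SCA1- and tdTomato-, which leaves out follicle cells that carried the reporter. IFE (interfollicular epidermis) cells were EPCAM+, integrin α6+, SCA1+ and tdTomato-. For every library the protocol used 0.25% trypsin for 60 min at 37 °C. The labels do not say whether a library held 1 animal or several, so the spread behind each p-value is that between these libraries, which may be technical in part. None of the 101 genes was used in the sort.

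Classical cadherins are calcium-dependent adhesion proteins of adherens junctions: their ectodomains bind like cadherins on the next cell, and their tails hold β-catenin and p120-catenin, which link the junction to actin. In mouse epidermis E-cadherin (Cdh1) is made by keratinocytes of all layers and P-cadherin (Cdh3) mainly by basal and follicle cells, while Celsr1 is the core planar polarity cadherin that, with Vangl2 and Fzd6, orients hair follicles. Fat and Dachsous cadherins bind one another between cells and bear on planar polarity and Hippo signalling, and protocadherins, most of which are studied in neurons, lack the catenin-binding tail of the classical cadherins. The clustered protocadherins lie in 3 gene arrays, Pcdha, Pcdhb and Pcdhg, in which the Pcdha and Pcdhg genes each splice a first exon of their own to shared last exons.

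Libraries held 9295059 to 28249763 expected counts, which are reads assigned to genes with shared reads divided among them, and members took 0.254% to 0.436% of them. Levels below are CPM, a gene's share of its library on a common scale, with the library size scaled by the TMM method. They are given for replicates 1, 2 and 3 in that order. TPM, which also divides by transcript length, is used where genes are compared with each other. Where a library had 0 counts, the level could still be up to 3 counts, which is 0.114 CPM at the greatest depth and 0.316 CPM at the least (counting error only). The labels were checked against marker genes: all 6 interfollicular keratinocyte markers were higher in Touchdome than in HF and 0 of 6 were called between Touchdome and IFE. All 7 hair follicle markers were lower in Touchdome than in HF, although 2 of 7 were higher in Touchdome than in IFE. All 4 touch dome markers were higher in Touchdome than in IFE, but against HF 1 of 4 was higher and 2 were lower in Touchdome. The sort itself set part of this, since Ly6a, 1 of the 6, encodes SCA1 and Tnc, 1 of the 4, drives the reporter. Of 7 Merkel cell markers, Atoh1 and Sox2 had no count in any of the 9 libraries, while Krt8 stood at 0.804 to 7.16 CPM in Touchdome, 1.69 to 2.56 CPM in HF and 0 to 0.105 CPM in IFE. Krt18 reached 1.98 CPM in Touchdome, against at most 0.262 CPM in HF and 0.158 CPM in IFE, all 9 counts of Krt20 were in Touchdome, and Piezo2 had counts in Touchdome and HF but not in IFE. Touchdome replicate 3 stood apart from the other Touchdome libraries on the first principal component (-2.86, against -37.6 and -40.7, with HF at 89.2 to 98.7). IFE replicate 2 was low in transcripts of at least 8000 nt (median deviation from the group mean -0.35 on the log2 scale over 768 genes, against 0.02 over the other genes). Among members with transcripts that long, it held the lowest IFE value of Celsr1, Celsr2, Pcdh7, Pcdh19, Fat1, Fat2 and Fat4, and the part of the shortfall in those values was not tested.

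Of the 101 members, 55 had enough counts to be tested, 30 had counts but too few (at most 58 in all libraries together), and 16 had 0 counts in every library. Those at 0 were Cdh7, Cdh8, Cdh9, Cdh12, Cdh16, Cdh18, Cdh20, Cdh26, Pcdh11x, Pcdh12, Pcdh17, Pcdhb1 and 4 of the Pcdha rows. Only 39 members reached a mean of 1 TPM in any population, and 12 reached 10 TPM. A gene counts as changed here when its adjusted p is under 0.05 (edgeR's quasi-likelihood test with Benjamini-Hochberg adjustment over all 15046 genes tested). Against IFE, 2 members were higher in Touchdome and 1 was lower, or 5.45% of those tested, where 1.30% of all genes were called (1.22% higher and 0.0798% lower). With replicate number added to the fit, the same members were called. Over all genes the calls then rose from 184 higher and 12 lower to 282 and 67. Every Touchdome library was above every IFE library for 7 members and below for 3, or 18.2% of those tested, where this held for 14.6% of all genes (8.32% above and 6.25% below). Against HF, 4 were higher in Touchdome and 10 lower, or 25.5% of those tested, close to the 24.6% of all genes called (11.8% higher and 12.8% lower). Here the libraries did not overlap for 22 members, 6 above and 16 below, where this held for 43.4% of all genes (21.2% above and 22.2% below). Between HF and IFE, 16 were higher in HF and 4 lower, or 36.4%, against 33.0% of all genes (17.1% higher and 16.0% lower). The libraries did not overlap for 31 members, 27 above and 4 below, where this held for 47.6% of all genes (24.6% above and 23.0% below). The comparisons share libraries, so their counts are not independent. The filter matters as well: 3 tested members (Pcdh18, Dchs1 and Fat3) would fail the count filter without the Touchdome libraries and 9 (Dchs1, Dchs2, Pcdhb7, Pcdhb9, Pcdhb11, Pcdhb13, Pcdhb15, Pcdhb21 and Pcdhga2) without the HF libraries. Leaving out 1 library changed some counts by over 1.5 times: in Touchdome against HF to 2 higher (without any one Touchdome library or HF replicate 3) and to between 4 and 6 lower (without Touchdome replicate 1 or 2 or any one HF library), and in HF against IFE to 10 higher (without HF replicate 2). In all, 23 members were called in at least 1 comparison and 32 tested members in none.

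**Figure D1:**
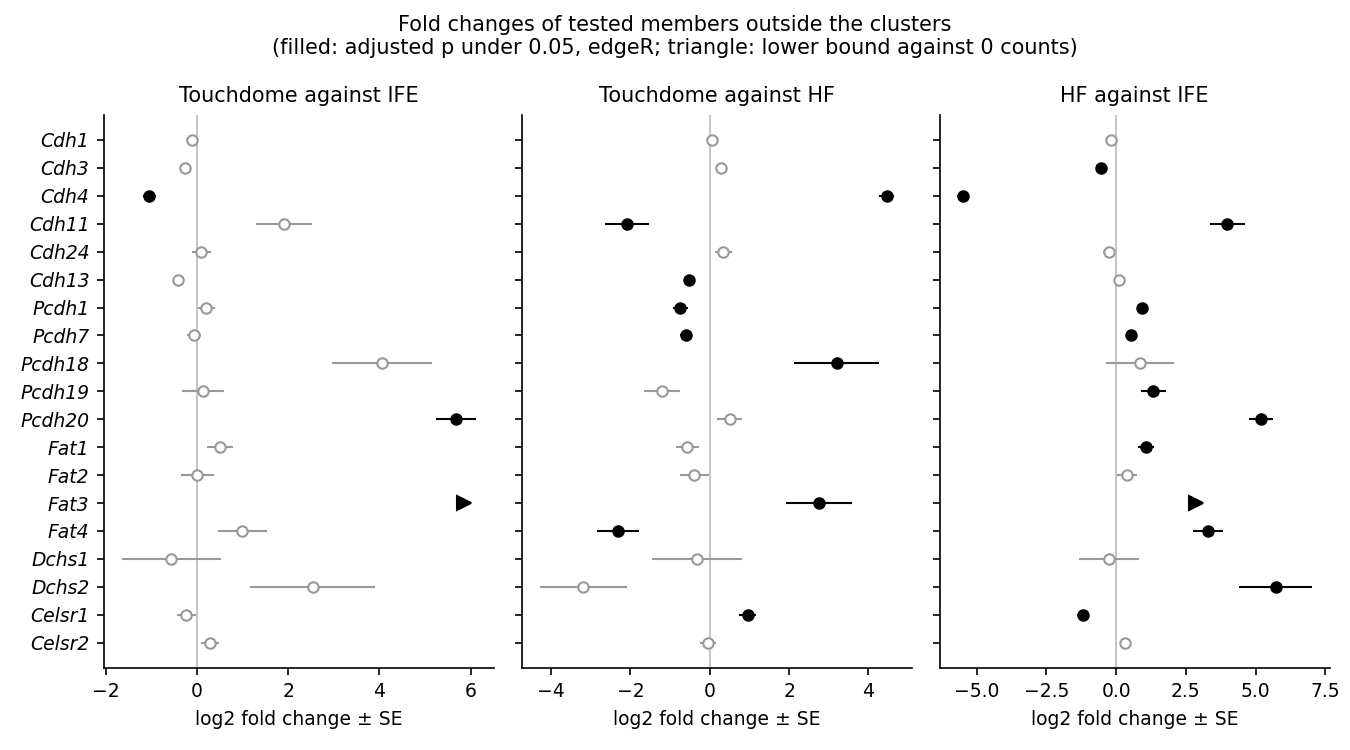
Fold changes (log2, horizontal axis) of the 19 tested members outside the protocadherin clusters in Touchdome against IFE, Touchdome against HF and HF against IFE. Points are edgeR estimates with bars of 1 SE, filled where the adjusted p was under 0.05. Triangles mark Fat3, which had 0 counts in IFE, set against 3 counts over the IFE libraries. Cdh4 lies far left against IFE in HF (-5.50) and less so in Touchdome (-1.04), while Pcdh20 lies far right in both (5.19 in HF and 5.69 in Touchdome).

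Per unit of transcript length, E-cadherin led. Cdh1 averaged 326 ± 30.7 TPM in Touchdome, 330.3 ± 16.3 TPM in HF and 323 ± 63.7 TPM in IFE (SD, n = 3 each) and was the highest member in each of the 9 libraries. Over all libraries Cdh13 followed at a mean of 149 TPM, then Celsr2 at 115 TPM, Celsr1 at 101 TPM, Cdh3 at 72.2 TPM, Fat2 at 57.0 TPM, Fat1 at 56.5 TPM and Pcdhgc3 at 47.5 TPM, and these 8 genes together held 86.4% to 89.7% of the members' TPM in every library. Neighbours in that order had overlapping libraries, apart from Cdh1, so it is not a ranking beyond replicate spread. The sum over all members was 990.0 to 1042 TPM in Touchdome, 1015 to 1283 TPM in HF and 776 to 1180 TPM in IFE, and these ranges overlap.

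**Figure D2:**
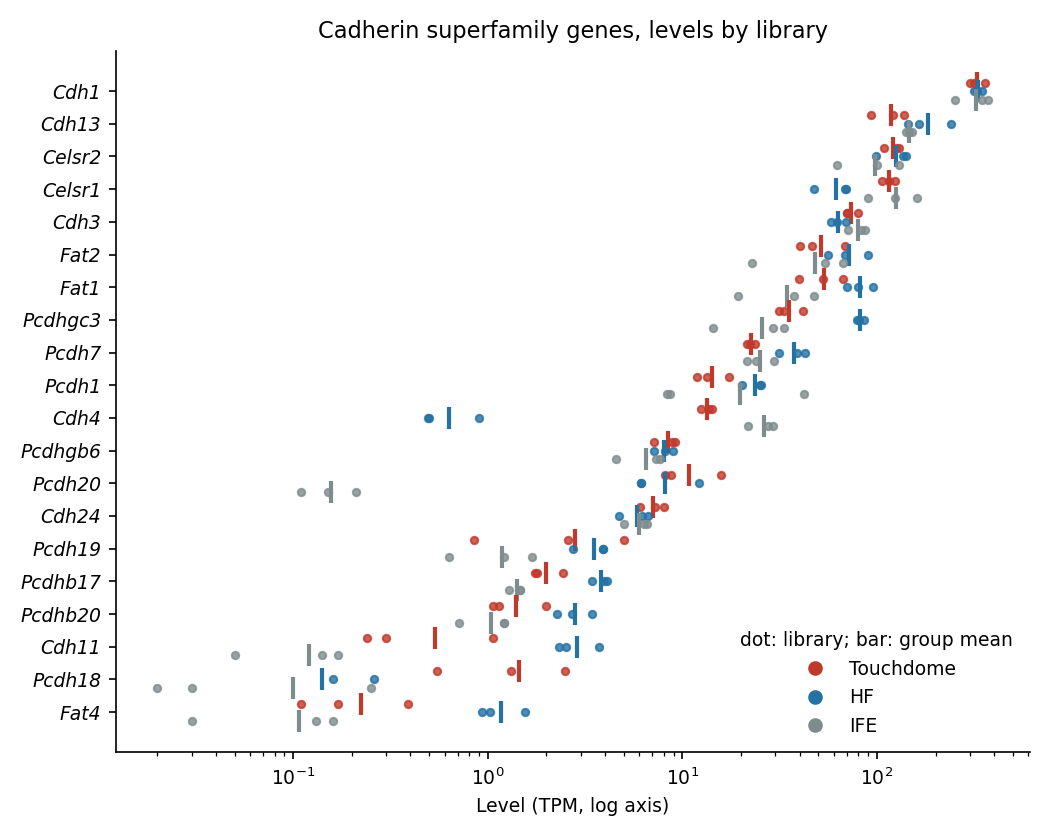
Levels in TPM (log axis) of members outside the protocadherin clusters that reached 1 TPM in some population, with 4 clustered genes added. Dots are libraries and bars are group means; HF replicate 1 of Pcdh18, at 0, has no dot. Cdh1 is highest and lies close together in the 3 populations, Celsr1 is lower and Fat1 and Pcdhgc3 higher in HF, and further down Cdh4 is set apart by its low HF libraries (0.490 to 0.900 TPM) and Pcdh20 by its low IFE libraries (0.110 to 0.210 TPM).

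Among the type I classical cadherins, the main change concerned R-cadherin and not E-cadherin. Cdh1 (ENSMUSG00000000303, chromosome 8) had 799.9, 814 and 909 CPM in the Touchdome libraries, 785, 853 and 777 CPM in HF, and 983, 759 and 972 CPM in IFE. All 3 populations overlapped, and the fold changes were small: -0.11 ± 0.13 for Touchdome against IFE, 0.06 ± 0.13 for Touchdome against HF and -0.17 ± 0.13 for HF against IFE on the log2 scale (± SE; lowest adjusted p = 0.355, edgeR). Cdh4 (ENSMUSG00000000305, chromosome 2), which encodes R-cadherin, a type I cadherin first described in retina, had 47.1, 49.9 and 47.2 CPM in the Touchdome libraries, 1.78, 3.27 and 1.83 CPM in HF, and 99.9, 96.0 and 101 CPM in IFE. No library of one population overlapped another: Touchdome stood between the near-silent HF cells and IFE, at about the same level in each of its libraries. Cdh4 fell in Touchdome against IFE, with -1.04 ± 0.15 on the log2 scale (± SE; adjusted p = 0.004, edgeR), and was higher in Touchdome than in HF by 4.46 ± 0.19 (adjusted p = 2.49e-08, edgeR). Between HF and IFE the log2 fold change was -5.50 ± 0.20 (adjusted p = 4.28e-09, edgeR), a 45.3-fold lower level in HF. The Touchdome against IFE call was lost in all 3 tests on log2 TPM values (highest adjusted p = 0.205, limma), where the fold change kept its sign, and was kept in the other 15 alternatives run.

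P-cadherin differed less. Cdh3 (ENSMUSG00000061048, chromosome 8) had 184, 204 and 179 CPM in the Touchdome libraries, 140.2, 153 and 172 CPM in HF, and 232, 215 and 235 CPM in IFE. Its libraries were ordered without overlap, HF lowest, IFE highest and Touchdome between. Of the 3 differences, the test called that between HF and IFE (log2 fold change -0.55 ± 0.11, adjusted p = 0.00222, edgeR), while Touchdome gave -0.26 ± 0.11 against IFE (adjusted p = 0.419) and 0.29 ± 0.11 against HF (adjusted p = 0.087). The HF against IFE call was lost in the 3 tests on log2 TPM (highest adjusted p = 0.119, limma). As a share of the TPM of the type I genes, Cdh1 made up 77.0% to 81.4% in Touchdome, 81.8% to 84.9% in HF and 73.1% to 76.5% in IFE. The share of Cdh4 was 2.81% to 3.54% in Touchdome, 0.127% to 0.219% in HF and 5.65% to 6.38% in IFE, ranges that do not overlap. N-cadherin (Cdh2) had 3 counts in all, in 1 Touchdome library, and M-cadherin (Cdh15) had 1 count.

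Of the 13 type II classical cadherins, 6 had 0 counts in every library, 5 had too few counts to test and 2 were tested. Cdh24, the most abundant of them, had 16.5, 12.1 and 14.4 CPM in the Touchdome libraries, 11.8, 9.06 and 12.9 CPM in HF, and 10.5, 15.7 and 14.1 CPM in IFE, with overlapping populations and no call. Cdh11 (ENSMUSG00000031673, chromosome 8), OB-cadherin, a cadherin of mesenchymal cells and osteoblasts, had 0.831, 0.894 and 3.49 CPM in the Touchdome libraries, 8.55, 5.16 and 8.19 CPM in HF, and 0.575, 0.211 and 0.530 CPM in IFE. HF libraries were all above the other populations, and Touchdome replicate 3, the library nearest to HF on the first principal component, was the highest outside HF. Cdh11 rose in HF against IFE by a log2 fold change of 3.99 ± 0.62 (adjusted p = 0.000278, edgeR) and fell in Touchdome against HF by a log2 fold change of -2.08 ± 0.56 (adjusted p = 0.0156). In Touchdome against IFE it was 1.91 ± 0.61 (adjusted p = 0.216, edgeR), with no overlap between libraries. The Touchdome against HF call was lost without Touchdome replicate 1, Touchdome replicate 2, HF replicate 1 or HF replicate 3 (adjusted p = 0.0682, 0.0613, 0.0622 and 0.0514, edgeR). Without Touchdome replicate 3 it was -3.08, and Touchdome against IFE was 0.91.

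Fibroblast markers moved in part alongside Cdh11. Their summed level over 7 genes was 45.3 to 92.2 CPM in Touchdome, 62.2 to 87.1 CPM in HF and 0.844 to 2.95 CPM in IFE. The members of that list were not alike: Dcn stood at 16.4 to 25.3 CPM in Touchdome against 0 to 0.0655 CPM in HF, Col1a2 at 15.3 to 21.5 CPM in Touchdome against 54.1 to 73.3 CPM in HF, and Lum had 0 counts in both. Of the 5 markers tested, 2 were higher and 0 lower in Touchdome against IFE, 1 was higher and 1 lower in Touchdome against HF, and 3 were higher and 0 lower in HF against IFE. Every population was sorted as EPCAM+ and integrin α6+, surface markers of epithelial and basal cells. The part of these markers in the values of Cdh11, Pcdh18, Fat3 and Fat4 was not tested. In bulk RNA, fewer cells of a type and less RNA per cell cannot be told apart. VE-cadherin (Cdh5), a marker of endothelium, was too low to test, with 27 counts in Touchdome, 2 in HF and 0 in IFE. The ratio of Touchdome to HF was 16.2 (95% counting interval 4.07 to 141). Such intervals, here and below, pool the libraries of a population and leave out the spread between them. Touchdome was 13.8-fold higher than IFE when set against 3 counts over the IFE libraries (95% counting interval from 10.5 upward). The 7 endothelial markers summed to 2.77 to 3.13 CPM in Touchdome, 0.632 to 3.98 CPM in HF and 0.842 to 0.984 CPM in IFE, and their part in the Cdh5 counts was not tested. Cdh19, a Schwann cell cadherin, had 5 counts in all, each in a Touchdome library.

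T-cadherin (Cdh13, ENSMUSG00000031841, chromosome 8), which is held in the membrane by a lipid anchor and has no cytoplasmic tail, was abundant everywhere and lowest in Touchdome. It had 186, 213 and 220.4 CPM in the Touchdome libraries, 283, 325 and 281 CPM in HF, and 263, 284 and 279 CPM in IFE. Every Touchdome library lay below every library of the other populations, which overlapped each other. The log2 fold change was -0.52 ± 0.11 in Touchdome against HF (adjusted p = 0.00435, edgeR), and -0.41 ± 0.11 in Touchdome against IFE, which did not pass (adjusted p = 0.12, edgeR; adjusted p = 0.0292 with DESeq2). HF against IFE gave 0.11 ± 0.11 (adjusted p = 0.511, edgeR). Of the other Cdh genes, Cdh23, a hair-bundle cadherin of the inner ear, had 0, 0 and 0.0830 CPM in the Touchdome libraries, 0, 0.422 and 0.131 CPM in HF, and 0.631, 0 and 0.114 CPM in IFE, or 22 counts in all. Cdh17, an intestinal cadherin, had 12 counts.

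**Figure D3:**
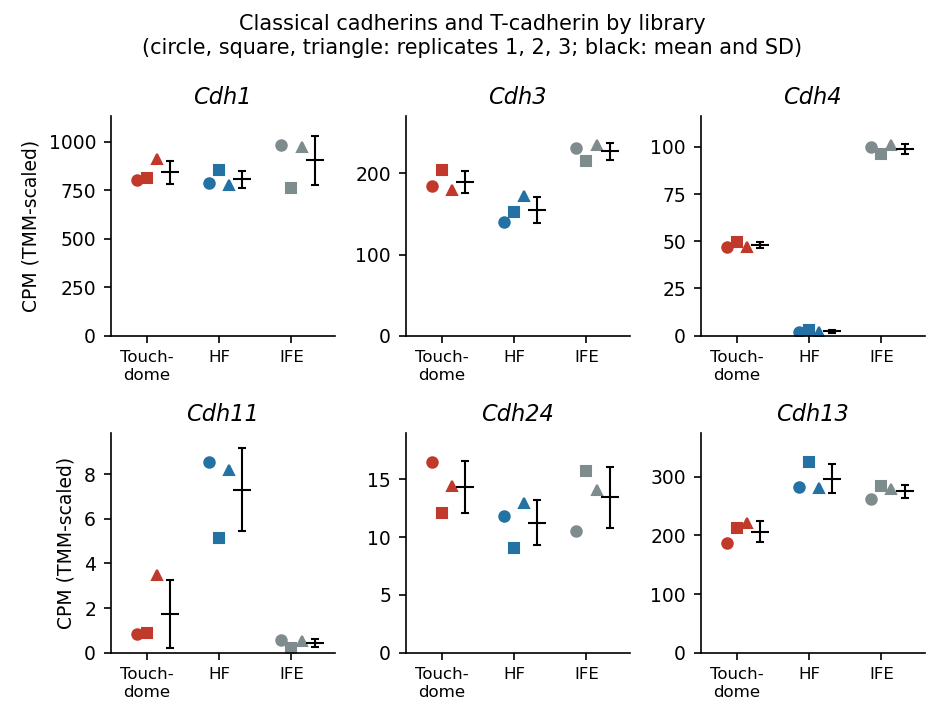
CPM by library (linear axis from 0) of the type I cadherin genes Cdh1, Cdh3 and Cdh4, the type II genes Cdh11 and Cdh24, and Cdh13, in Touchdome, HF and IFE. Circles, squares and triangles are replicates 1, 2 and 3, and black bars are the mean and SD; Cdh4 falls into 3 separate levels, Cdh11 is high in HF alone, and Cdh13 is lowest in Touchdome.

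The δ-protocadherins, which are encoded singly outside the clusters, gave the clearest gain in Touchdome over IFE. Pcdh20 (ENSMUSG00000050505, chromosome 14), best known from developing sensory and nervous tissue, had 27.0, 38.8 and 19.8 CPM in the Touchdome libraries, 30.4, 14.6 and 14.8 CPM in HF, and 0.368, 0.492 and 0.719 CPM in IFE. Every Touchdome and HF library was far above every IFE library, and Touchdome and HF overlapped. The log2 fold change was 5.69 ± 0.44 in Touchdome against IFE (adjusted p = 0.000139, edgeR) and 5.19 ± 0.44 in HF against IFE (adjusted p = 6.48e-06), and both calls were kept in all 18 alternatives run. Touchdome against HF gave 0.50 ± 0.32 (adjusted p = 0.305, edgeR), and without HF replicate 1 it gave 0.95 (adjusted p = 0.0386). Pcdh18 (ENSMUSG00000037892, chromosome 3) was sparse, with 1.02, 3.31 and 1.74 CPM in the Touchdome libraries, 0, 0.632 and 0.131 CPM in HF, and 0.105, 0.0703 and 0.151 CPM in IFE. Touchdome libraries were all above the rest, and HF and IFE overlapped near 0. The log2 fold change was 3.20 ± 1.07 in Touchdome against HF (adjusted p = 0.0451, edgeR) and 4.06 ± 1.09 in Touchdome against IFE (adjusted p = 0.115, edgeR; adjusted p = 0.00833 with DESeq2, and 0.0456 with edgeR on those 2 populations alone). The call against HF was lost when any one library other than HF replicate 2 was left out (adjusted p = 0.0504 to 0.183, edgeR), and since Pcdh18 reached the count filter through the Touchdome libraries, a difference was built into its being tested. Its value against HF was 2.46 without HF replicate 1 and 4.96 without HF replicate 2.

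The starts of 3 genes that were higher in Touchdome are printed to show how unlike the sequences before them are. They are the 250 bases before the start, 5′ to 3′, from RefSeq, build GRCm38.p6, and were picked after the values were seen, being those called higher in Touchdome in some comparison whose start the RefSeq table used here holds. The capitals mark a CCAAT box on either strand.
Pcdh20, chr14:88471397-88471646, minus strand: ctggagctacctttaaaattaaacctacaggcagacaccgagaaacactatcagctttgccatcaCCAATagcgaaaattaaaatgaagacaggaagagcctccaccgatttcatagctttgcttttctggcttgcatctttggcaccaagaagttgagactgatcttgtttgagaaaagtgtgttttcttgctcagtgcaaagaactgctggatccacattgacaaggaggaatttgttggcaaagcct
Pcdh18, chr3:49757317-49757566, minus strand: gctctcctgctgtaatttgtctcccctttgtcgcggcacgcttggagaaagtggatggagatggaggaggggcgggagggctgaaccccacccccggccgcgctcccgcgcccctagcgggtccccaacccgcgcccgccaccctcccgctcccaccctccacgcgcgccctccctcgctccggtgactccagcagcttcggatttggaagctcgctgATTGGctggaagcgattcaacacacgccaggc
Fat3, chr9:16502055-16502304, minus strand: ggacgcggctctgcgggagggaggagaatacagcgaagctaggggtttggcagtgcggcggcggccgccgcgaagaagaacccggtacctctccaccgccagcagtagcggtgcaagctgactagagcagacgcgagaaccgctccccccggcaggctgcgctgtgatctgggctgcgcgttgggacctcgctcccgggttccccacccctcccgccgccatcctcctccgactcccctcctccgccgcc
The 50 bases after the start lay in a transcript of the reference for Pcdh18 but were not found in one for Pcdh20 or Fat3, so the position of those starts is less sure. Over its 300-base window, which runs 50 bases past the start, Pcdh20 had 4 CpG dinucleotides and 43.7% GC. Pcdh18 had 23 CpG and 63.0% GC, and Fat3 had 35 CpG and 71.3% GC, where the median of 32851 promoter windows was 7 CpG and 52.7% GC. Of the motifs searched on both strands, CCAAT occurred in 37.4% of all windows and was found in Pcdh20 and Pcdh18. The TATA box TATAAA, held by 13.6% of windows, was not found in these 3 windows. Nor was CAGGTG, an E-box that Snail and Zeb factors bind (20.2% of windows), nor the GLI motif GACCACCCA (0.253% of windows), nor the TCF/LEF motif CTTTGAT (3.73% of windows). Among the 29 members whose windows were searched, CAGGTG occurred in those of Cdh7, Celsr2, Fat1, Pcdh7 and Pcdh15, and the GLI and TCF/LEF motifs in none.

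Pcdh7 and Pcdh1 were the most abundant δ-protocadherins. Pcdh7 (ENSMUSG00000029108, chromosome 5) had 82.0, 85.0 and 68.5 CPM in the Touchdome libraries, 123, 128 and 106 CPM in HF, and 102, 66.9 and 77.6 CPM in IFE. HF libraries were above all others, and Touchdome and IFE overlapped. It fell in Touchdome against HF (log2 fold change -0.60 ± 0.16, adjusted p = 0.0127, edgeR) and was higher in HF than in IFE (0.54 ± 0.15, adjusted p = 0.0174). The first call was lost without Touchdome replicate 3 or HF replicate 2 (adjusted p = 0.0508 and 0.0522), the second without HF replicate 1 or 2 or IFE replicate 2 or 3 (0.0535 to 0.0675, edgeR). Pcdh1 (ENSMUSG00000051375, chromosome 18), which is expressed in airway and skin epithelium, had 27.6, 30.1 and 28.9 CPM in the Touchdome libraries, 54.8, 54.6 and 35.5 CPM in HF, and 31.0, 23.2 and 21.1 CPM in IFE. Again HF was above both other populations, with log2 fold changes of -0.74 ± 0.19 in Touchdome against HF (adjusted p = 0.0111, edgeR) and 0.94 ± 0.19 in HF against IFE (adjusted p = 0.00173). On the TPM scale IFE replicate 1 stood at 42.4 against 8.65 and 8.37 TPM in the other IFE libraries, since the effective length implied by its deposited counts and TPM was shorter there. Both calls were lost in the tests on log2 TPM (highest adjusted p = 0.477, limma). That of Touchdome against HF was also lost without Touchdome replicate 1, HF replicate 1 or HF replicate 2 (adjusted p = 0.0536, 0.0555 and 0.0501, edgeR).

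Pcdh19 (ENSMUSG00000051323, chromosome X), whose human gene is mutated in an epilepsy of girls, had 5.05, 4.56 and 14.6 CPM in the Touchdome libraries, 21.6, 19.8 and 14.4 CPM in HF, and 7.47, 4.15 and 10.2 CPM in IFE. HF was above IFE in every library, and Touchdome replicate 3 reached the HF range while the other Touchdome libraries lay within that of IFE. On the TPM scale Touchdome replicate 1 was instead the highest of its group, since the effective length implied for it there was shorter. It was higher in HF than in IFE (log2 fold change 1.34 ± 0.45, adjusted p = 0.0448, edgeR), a call lost without any one of the HF libraries or without IFE replicate 1 or 2 (adjusted p = 0.0555 to 0.132). Touchdome against HF gave -1.21 ± 0.46 (adjusted p = 0.0845, edgeR) and, without Touchdome replicate 3, -1.95 (adjusted p = 0.00161). Pcdh8, Pcdh9 and Pcdh10 had 27.1, 5 and 18 counts in all. Pcdh8 had 3 counts in Touchdome against 24 in HF, a ratio of 0.150 (95% counting interval 0.0289 to 0.494). With 0 counts in IFE, HF was 10.2-fold higher when set against 3 counts over the IFE libraries (95% counting interval from 7.70 upward). Pcdh15, a partner of Cdh23 in the inner ear, had 10 counts in Touchdome, 0 in HF and 2 in IFE. Its level was 0.320, 0.358 and 0.0830 CPM in the Touchdome libraries, 0, 0 and 0 CPM in HF, and 0, 0.141 and 0 CPM in IFE.

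Of the giant cadherins, Fat1 and Fat2 were abundant, with Fat1 higher in HF than in IFE, and Fat3, Fat4 and Dchs2 were scarce and differed strongly. Fat1 (ENSMUSG00000070047, chromosome 8) had 593, 339.6 and 446 CPM in the Touchdome libraries, 642, 809 and 592 CPM in HF, and 431, 195 and 349 CPM in IFE. It was higher in HF than in IFE, with no overlap (log2 fold change 1.06 ± 0.29, adjusted p = 0.0189, edgeR), and Touchdome overlapped both. That call was lost without HF replicate 2 (adjusted p = 0.0642), and IFE replicate 2, low in long transcripts, held the lowest value. Fat2 (ENSMUSG00000055333, chromosome 11), whose fly counterpart steers collective migration of follicle cells, had 615, 348 and 407 CPM in the Touchdome libraries, 570.3, 752 and 474 CPM in HF, and 610.1, 235 and 522 CPM in IFE. The populations overlapped throughout and no difference was called (log2 fold change 0.00 ± 0.36 in Touchdome against IFE, -0.39 ± 0.36 in Touchdome against HF and 0.39 ± 0.36 in HF against IFE). Its lowest library was again IFE replicate 2.

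Fat4 (ENSMUSG00000046743, chromosome 3), the receptor of the mammalian Dachsous pair, had 1.73, 3.84 and 1.08 CPM in the Touchdome libraries, 9.60, 14.5 and 8.78 CPM in HF, and 1.37, 0.352 and 1.48 CPM in IFE. HF libraries were well above the rest, and Touchdome and IFE overlapped. Fat4 fell in Touchdome against HF by a log2 fold change of -2.31 ± 0.52 (adjusted p = 0.00572, edgeR) and was higher in HF than in IFE by 3.31 ± 0.54 (adjusted p = 0.000451), both kept in all 18 alternatives run. Without Touchdome replicate 2 the value against HF was -2.94. Dchs2, which encodes a Dachsous ligand, followed the same order at a lower level, with 0.449 ± 0.562 CPM in Touchdome, 4.06 ± 2.32 CPM in HF and 0.0701 ± 0.121 CPM in IFE (SD, n = 3 each). It was higher in HF than in IFE (log2 fold change 5.72 ± 1.31, adjusted p = 0.00497, edgeR), and Touchdome against HF gave -3.18 ± 1.11 (adjusted p = 0.0547), or -4.99 without Touchdome replicate 3 (adjusted p = 0.0163). Dchs2 reached the count filter through the HF libraries, so a higher level there was built into its being tested. Without IFE replicate 3 the HF against IFE value was 5.03, and without IFE replicate 1 the other IFE libraries had 0 counts. Dchs1, the better-known ligand of Fat4, had at most 1.26 CPM in any library and no call.

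Fat3, which in mouse shapes amacrine neurons of the retina, was highest in Touchdome instead of HF, with 113 counts in Touchdome, 17 in HF and 0 in IFE. It ranged over 1.91 to 4.09 CPM in the Touchdome libraries and 0.0914 to 0.655 CPM in those of HF, so that Touchdome lay above both other populations. When set against 3 counts over the IFE libraries, Fat3 was 57.8-fold higher in Touchdome (95% counting interval from 46.2 upward). In HF it was 7.25-fold higher on the same footing (95% counting interval from 5.28 upward). Both differences from IFE were called (adjusted p = 0.00965 for Touchdome and adjusted p = 0.00962 for HF, edgeR). Touchdome against HF gave a log2 fold change of 2.75 ± 0.83 (adjusted p = 0.0326, edgeR). All 3 calls were lost in the 3 tests on log2 TPM (highest adjusted p = 0.445 for Touchdome against IFE, 0.416 for HF against IFE and 0.334 for Touchdome against HF, limma). On the TPM scale Fat3 stood at 0.51 ± 0.18 TPM in Touchdome and 0.21 ± 0.24 TPM in HF. The call of Touchdome against HF was also lost when any one Touchdome or HF library was left out (adjusted p = 0.0502 to 0.151, edgeR). Fat3 too reached the count filter through the Touchdome libraries. Exons of Fat1, Fat4, Dchs1, Dchs2, Pcdh7, Pcdh8, Pcdh10 and Pcdh19 overlap annotated genes on the other strand, and without a known strand setting their reads cannot be told apart.

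Celsr1 and Celsr2, the vertebrate counterparts of the fly polarity cadherin Flamingo, were among the most abundant members, and of these Celsr1 was lower in HF. Celsr1 (ENSMUSG00000016028, chromosome 15) had 474, 445 and 377 CPM in the Touchdome libraries, 231, 253 and 185 CPM in HF, and 648, 332 and 544 CPM in IFE. Each HF library was below every Touchdome and IFE library, and Touchdome lay within the IFE range, whose lowest library was IFE replicate 2. Celsr1 was higher in Touchdome than in HF (log2 fold change 0.96 ± 0.22, adjusted p = 0.00718, edgeR) and lower in HF than in IFE (-1.19 ± 0.22, adjusted p = 0.00135), both kept in all 18 alternatives run, and Touchdome against IFE gave -0.23 ± 0.21 (adjusted p = 0.821). Celsr2 (ENSMUSG00000068740, chromosome 3) had 439.6, 365 and 418 CPM in the Touchdome libraries, 445, 490.4 and 324 CPM in HF, and 404, 234 and 364 CPM in IFE. The populations overlapped and no difference was called (log2 fold change 0.29 ± 0.20 in Touchdome against IFE, -0.04 ± 0.20 in Touchdome against HF and 0.33 ± 0.20 in HF against IFE). Celsr3 had 11 counts in all.

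**Figure D4:**
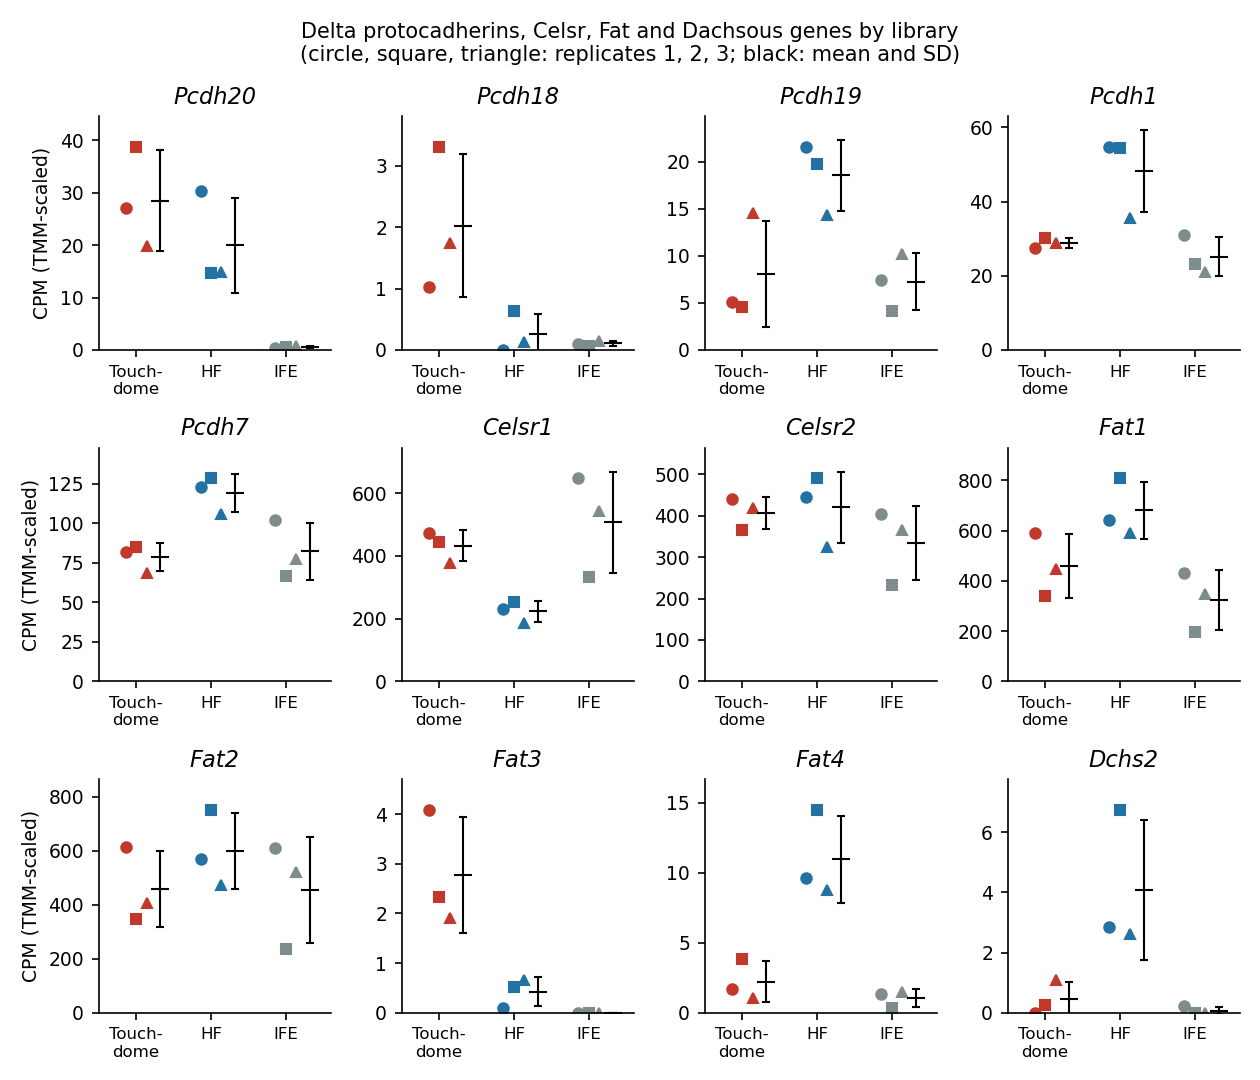
CPM by library (linear axis from 0) of δ-protocadherin, Celsr, Fat and Dachsous genes in Touchdome, HF and IFE. Circles, squares and triangles are replicates 1, 2 and 3, and black bars are the mean and SD; Pcdh20 is near 0 in IFE, Fat3 and Pcdh18 are highest in Touchdome, Fat4 and Dchs2 are high in HF, and Celsr1 is lowest in HF.

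Partners of these cadherins were counted in lists, to be read against the 1.30% of all genes called in Touchdome against IFE, the 24.6% called in Touchdome against HF and the 33.0% called in HF against IFE. Of the 9 catenins and junction adaptors tested, 1 was higher and 0 lower in Touchdome against IFE (median log2 fold change -0.02), 2 higher and 3 lower in Touchdome against HF (-0.09), and 3 higher and 2 lower in HF against IFE (-0.04), where the medians over all genes lay within 0.01 of 0. Pkp4, an armadillo-repeat protein of the p120-catenin family, stood at 219.9 ± 38.3 CPM in Touchdome, 58.9 ± 5.15 CPM in HF and 256 ± 17.97 CPM in IFE. It was higher in Touchdome than in HF (log2 fold change 1.90 ± 0.14, adjusted p = 1.31e-06, edgeR) and lower in HF than in IFE (-2.12 ± 0.14, adjusted p = 3.62e-07). Afdn (afadin, which joins nectins to actin) ran the other way, at 274 ± 53.9 CPM in Touchdome, 713 ± 53.4 CPM in HF and 201 ± 27.0 CPM in IFE (adjusted p = 3.31e-05 in Touchdome against HF and adjusted p = 2.48e-06 in HF against IFE, edgeR). Ctnnd2, δ-catenin, stood at 5.25 ± 3.08 CPM in Touchdome, 19.0 ± 0.575 CPM in HF and 1.24 ± 0.583 CPM in IFE and was called in all 3 comparisons, with a log2 fold change of 2.02 ± 0.41 in Touchdome against IFE (adjusted p = 0.0306, edgeR). Its Touchdome libraries had 3.45, 3.49 and 8.80 CPM, so that replicate 3, the library standing apart, was the highest. Jup (plakoglobin) stood at 1353 ± 106 CPM in Touchdome, 1038 ± 84.3 CPM in HF and 1501 ± 131 CPM in IFE and was lowest in HF (adjusted p = 0.0441 for Touchdome against HF and adjusted p = 0.00607 for HF against IFE, edgeR). Of the 4 nectins none was called with Touchdome on either side. HF against IFE gave 1 higher, Nectin4 (0.73 ± 0.19, adjusted p = 0.0101, edgeR), and 1 lower, Nectin2 (-0.46 ± 0.13, adjusted p = 0.0188).

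The 12 planar polarity partners of Celsr gave 0 calls in Touchdome against IFE, 1 higher and 4 lower in Touchdome against HF, and 5 higher and 2 lower in HF against IFE, beside 24.6% and 33.0% of all genes in the comparisons with HF. The median log2 fold changes of this list were -0.04, 0.04 and -0.09 in these comparisons, beside medians over all genes within 0.01 of 0. The receptor gene Fzd3 stood at 14.6 ± 5.28 CPM in Touchdome, 121 ± 17.9 CPM in HF and 10.1 ± 1.60 CPM in IFE. Prickle1, a cytoplasmic core component, stood at 21.9 ± 7.48 CPM in Touchdome, 4.0 ± 0.648 CPM in HF and 36.6 ± 3.89 CPM in IFE. Both differed between Touchdome and HF (log2 fold changes -3.06 ± 0.23 and 2.46 ± 0.25; adjusted p = 2.53e-06 and 1.63e-05, edgeR), in opposite directions. Prickle2 stood at 71.7 ± 7.23 CPM in Touchdome, 129.8 ± 0.542 CPM in HF and 74.0 ± 6.85 CPM in IFE. Vangl2 stood at 103 ± 7.97 CPM in Touchdome, 142 ± 5.46 CPM in HF and 93.0 ± 5.15 CPM in IFE. Both were called lower in Touchdome than in HF and higher in HF than in IFE. Of the 16 tested genes of the Fat, Dachsous and Hippo list, 1 was higher and 0 lower in Touchdome against IFE, 1 higher and 5 lower in Touchdome against HF, and 5 higher and 2 lower in HF against IFE, with median log2 fold changes of -0.0012, -0.24 and 0.28. Ccn2, a matricellular target of YAP and TAZ, stood at 275 ± 184 CPM in Touchdome, 2977 ± 486 CPM in HF and 36.9 ± 8.91 CPM in IFE, and Touchdome was above IFE by a log2 fold change of 2.90 ± 0.46 (adjusted p = 0.023, edgeR). Its Touchdome libraries had 146, 193 and 486 CPM, replicate 3 highest. Fjx1, the counterpart of the fly kinase four-jointed that modifies Fat and Dachsous, stood at 10.6 ± 1.53 CPM in Touchdome, 28.0 ± 0.856 CPM in HF and 16.3 ± 1.96 CPM in IFE. Amotl2, an angiomotin, stood at 52.4 ± 7.64 CPM in Touchdome, 97.6 ± 7.59 CPM in HF and 49.5 ± 4.10 CPM in IFE, and like Fjx1 was called lower in Touchdome than in HF (adjusted p = 4.95e-05 for Fjx1 and 0.000287 for Amotl2, edgeR). Wwtr1, which encodes TAZ, ran in the opposite order, at 103 ± 7.14 CPM in Touchdome, 71.2 ± 0.782 CPM in HF and 126 ± 14.7 CPM in IFE.

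Transcription factors known to act on cadherin genes gave no call with edgeR in Touchdome against IFE. Of 8 tested, 1 was higher in Touchdome against HF, Grhl3 (1.08 ± 0.22, adjusted p = 0.00305, edgeR), and 3 were lower in HF against IFE: Grhl3, a grainyhead factor of the epidermal barrier (-0.96 ± 0.22), and the zinc-finger genes Ovol1 (-0.92 ± 0.26) and Ovol2 (-0.93 ± 0.27; lowest adjusted p = 0.00469, edgeR). The cadherin processing enzymes gave 0 of 11 in Touchdome against IFE, 1 higher and 3 lower in Touchdome against HF, and 2 higher and 2 lower in HF against IFE, beside 24.6% and 33.0% of all genes in the comparisons with HF. The proprotein convertase gene Pcsk6 stood at 17.2 ± 5.14 CPM in Touchdome, 36.5 ± 1.11 CPM in HF and 13.97 ± 3.23 CPM in IFE, and Pcsk5 at 1.26 ± 0.300 CPM in Touchdome, 3.81 ± 0.618 CPM in HF and 0.708 ± 0.437 CPM in IFE. The sheddase gene Adam17 stood at 97.4 ± 7.35 CPM in Touchdome, 74.9 ± 7.57 CPM in HF and 102 ± 7.93 CPM in IFE. Aph1a, a γ-secretase subunit, stood at 107 ± 2.349 CPM in Touchdome, 89.3 ± 1.12 CPM in HF and 119 ± 14.9 CPM in IFE.

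The clustered protocadherins, which in neurons give each cell a surface identity, were read as sums over each array on chromosome 18. Pcdha and Pcdhg members share last exons, so the division of reads among them is uncertain. Among Pcdhb members only Pcdhb21 and Pcdhb22 share annotated exon bases, and likeness of sequence was not measured. The Pcdha array was close to silent, with 13 counts in Touchdome, 32.01 in HF and 24 in IFE over its 14 rows, and none of its members was tested. By counts its highest row was Pcdhac2, with 13.5 in all, each in HF. By mean TPM the highest were a Pcdha11 row with 7 counts, all in Touchdome replicate 1, and Pcdha4 with 6 counts, all in HF replicate 2. The Pcdhb array, 22 single-exon genes, summed to 34.6, 24.0 and 28.3 CPM in the Touchdome libraries, 47.2, 46.9 and 49.6 CPM in HF, and 21.7, 17.3 and 22.8 CPM in IFE. HF was above both other populations in every library, and Touchdome was above IFE in every library. The sum fell in Touchdome against HF with a log2 fold change of -0.72 ± 0.16 (adjusted p = 0.00418, edgeR, on a table of 15012 rows with each cluster as 1 row). It was higher in HF than in IFE by 1.21 ± 0.16 (adjusted p = 6.67e-05). In these comparisons 24.6% and 33.0% of all rows were called. Touchdome against IFE gave 0.49 ± 0.16 (adjusted p = 0.212, edgeR), which did not pass.

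Few single Pcdhb genes passed the test. Of the 15 tested, 0 were higher and 3 lower in Touchdome against HF (Pcdhb7, Pcdhb14 and Pcdhb17), 4 were higher and 0 lower in HF against IFE (Pcdhb9, Pcdhb14, Pcdhb17 and Pcdhb20), and none was called in Touchdome against IFE. Over all genes, 12.8% were called lower in Touchdome against HF and 17.1% higher in HF against IFE, and 1.30% were called either way in Touchdome against IFE. Pcdhb7, Pcdhb9, Pcdhb11, Pcdhb13, Pcdhb15 and Pcdhb21 passed the count filter only with the HF libraries, so a median over the tested genes is not given. Pcdhb17, the most abundant, had 6.84, 4.83 and 4.73 CPM in the Touchdome libraries, 10.3, 8.96 and 10.8 CPM in HF, and 4.16, 4.15 and 4.47 CPM in IFE. Its 3 populations did not overlap, HF highest and IFE lowest, and it fell in Touchdome against HF (-0.87 ± 0.25, adjusted p = 0.0223, edgeR), a call lost without Touchdome replicate 2 or 3 or HF replicate 1 or 3 (adjusted p = 0.0683 to 0.0795). HF was above IFE by 1.23 ± 0.25 (adjusted p = 0.00207, edgeR), kept in all 18 alternatives run. Pcdhb20 had 2.24, 2.32 and 4.07 CPM in the Touchdome libraries, 5.26, 6.74 and 4.52 CPM in HF, and 1.53, 2.95 and 2.76 CPM in IFE, with HF above the other populations, which overlapped. It was higher in HF than in IFE (1.18 ± 0.39, adjusted p = 0.0334, edgeR), but not without HF replicate 1 or 2 or IFE replicate 1 or 3 (adjusted p = 0.0616 to 0.113). Pcdhb10, too low to test, ran the other way, with 22 counts in Touchdome against 2 in HF, a ratio of 13.2 (95% counting interval 3.24 to 116). Pcdhb3 and Pcdhb6, also too low to test, went with the array. Pcdhb3 had 2 counts in Touchdome against 32 in HF, a ratio of 0.0750 (95% counting interval 0.00871 to 0.294). Pcdhb6 had 2 against 20, a ratio of 0.120 (0.0136 to 0.494). Pcdhb7, Pcdhb9 and Pcdhb14 had means of 0.117 to 3.59 CPM, and their calls, other than that of Pcdhb9 in HF against IFE, depended on single libraries. That of Pcdhb9 was 3.38 ± 0.85 (adjusted p = 0.00822, edgeR), or 4.33 without IFE replicate 3. Pcdhb9 passed the count filter in HF alone, so a higher level there was built into its being tested.

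The Pcdhg array summed to 188, 172 and 202 CPM in the Touchdome libraries, 313, 328 and 314 CPM in HF, and 172, 135 and 171 CPM in IFE. HF was above both other populations in every library, and the lowest Touchdome library (172 CPM in replicate 2) and the highest IFE library (172 CPM in replicate 1) met within 1 CPM. The log2 fold change was -0.76 ± 0.12 in Touchdome against HF (adjusted p = 0.000514, edgeR), 1.00 ± 0.12 in HF against IFE (adjusted p = 4.2e-05) and 0.24 ± 0.12 in Touchdome against IFE (adjusted p = 0.538). One gene held a large share of these reads. Pcdhgc3 (ENSMUSG00000102918), a C-type isoform expressed from its own promoter at the end of the array, had 91.8, 86.2 and 112 CPM in the Touchdome libraries, 209, 222 and 206 CPM in HF, and 94.6, 46.4 and 88.2 CPM in IFE. HF libraries were tightly grouped above all others, and Touchdome and IFE overlapped. Its log2 fold change was -1.13 ± 0.22 in Touchdome against HF (adjusted p = 0.00363, edgeR) and 1.47 ± 0.23 in HF against IFE (adjusted p = 0.000495), both kept in all 18 alternatives run. Pcdhgc3 made up 48.5% to 55.4% of the Pcdhg TPM in Touchdome, 65.1% to 67.0% in HF and 28.8% to 53.9% in IFE, the lowest of these in IFE replicate 2. In the reference annotation the Pcdhg genes also share exon bases on their strand with Gm37013, Gm37388, Gm38182 and Gm42416, which lie outside the sum. The division of reads with those genes was not tested.

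The remaining 20 Pcdhg genes together had 96.4, 86.2 and 89.6 CPM in the Touchdome libraries, 104, 106 and 108 CPM in HF, and 77.3, 88.3 and 82.9 CPM in IFE. HF was still highest without overlap, but by less. The log2 fold change was -0.22 ± 0.10 in Touchdome against HF (adjusted p = 0.141, edgeR) and 0.35 ± 0.10 in HF against IFE (adjusted p = 0.0170), in a fit added after Pcdhgc3 was seen to hold that share. Pcdhgb6, the next most abundant, had 20.1, 24.96 and 24.3 CPM in the Touchdome libraries, 23.4, 18.7 and 21.6 CPM in HF, and 20.8, 14.9 and 23.4 CPM in IFE, with overlapping populations and no call. Pcdhga5 had 4.16, 4.5 and 2.81 CPM in the Touchdome libraries, 8.36, 7.10 and 7.50 CPM in HF, and 3.07, 1.56 and 2.80 CPM in IFE. HF was above the rest (log2 fold change -1.0 ± 0.33 in Touchdome against HF, adjusted p = 0.0437, and 1.62 ± 0.34 in HF against IFE, adjusted p = 0.00238, edgeR). Its Touchdome against HF call was lost when any one Touchdome or HF library or IFE replicate 3 was left out (adjusted p = 0.0594 to 0.135). Pcdhgb1 had 5.58, 2.59 and 2.90 CPM in the Touchdome libraries, 2.31, 8.92 and 7.68 CPM in HF, and 0.955, 2.45 and 2.67 CPM in IFE and was called higher in HF than in IFE (1.62 ± 0.55, adjusted p = 0.038, edgeR) although its libraries overlapped. That call was lost without HF replicate 2 or 3 or any one IFE library (adjusted p = 0.0519 to 0.141).

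Pcdhgc4 was called in the direction opposite to the sum of its array. It had 5.09, 4.40 and 6.87 CPM in the Touchdome libraries, 2.61, 1.26 and 2.80 CPM in HF, and 5.39, 25.6 and 6.87 CPM in IFE. HF libraries were lowest, and a single library, IFE replicate 2, was several times above all others. The test called it lower in HF than in IFE (-2.45 ± 0.58, adjusted p = 0.0081, edgeR), which was lost on log2 TPM (highest adjusted p = 0.153, limma). Without IFE replicate 2 it was -1.43. Touchdome against HF gave 1.26 ± 0.58 (adjusted p = 0.153, edgeR), and 1.26 with an adjusted p of 0.0216 without IFE replicate 2. The effective length implied by the deposited counts and TPM of Pcdhgc4 was also shortest in that library. In all, 4 of 34 members had an effective length that ranged over 2-fold between libraries (Pcdh19, Pcdh1, Pcdhgc4 and Pcdhb22), against 8.49% of 12038 genes. Of the 11 tested genes known to govern promoter choice and looping in these arrays, such as Ctcf and the cohesin subunits, 0 were called in Touchdome against IFE, 1 was higher in Touchdome against HF, and 1 was higher and 1 lower in HF against IFE, below the 24.6% and 33.0% of all genes called in the comparisons with HF. The cohesin gene Rad21 stood at 196 ± 13.2 CPM in Touchdome, 149.6 ± 10.1 CPM in HF and 209 ± 27.2 CPM in IFE. Setdb1, a histone methyltransferase gene, stood at 67.5 ± 4.51 CPM in Touchdome, 78.1 ± 0.749 CPM in HF and 61.5 ± 8.24 CPM in IFE. Of the 8 tested genes of the WAVE actin-nucleation complex, to which δ- and clustered protocadherins can bind, 0 were called in Touchdome against IFE, 1 was higher in Touchdome against HF, and 4 were lower in HF against IFE, beside the same shares. Cyfip2 stood at 7.77 ± 2.052 CPM in Touchdome, 2.76 ± 0.153 CPM in HF and 8.25 ± 4.27 CPM in IFE. Nckap1 stood at 229.9 ± 26.1 CPM in Touchdome, 182 ± 18.1 CPM in HF and 244 ± 13.1 CPM in IFE.

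**Figure D5:**
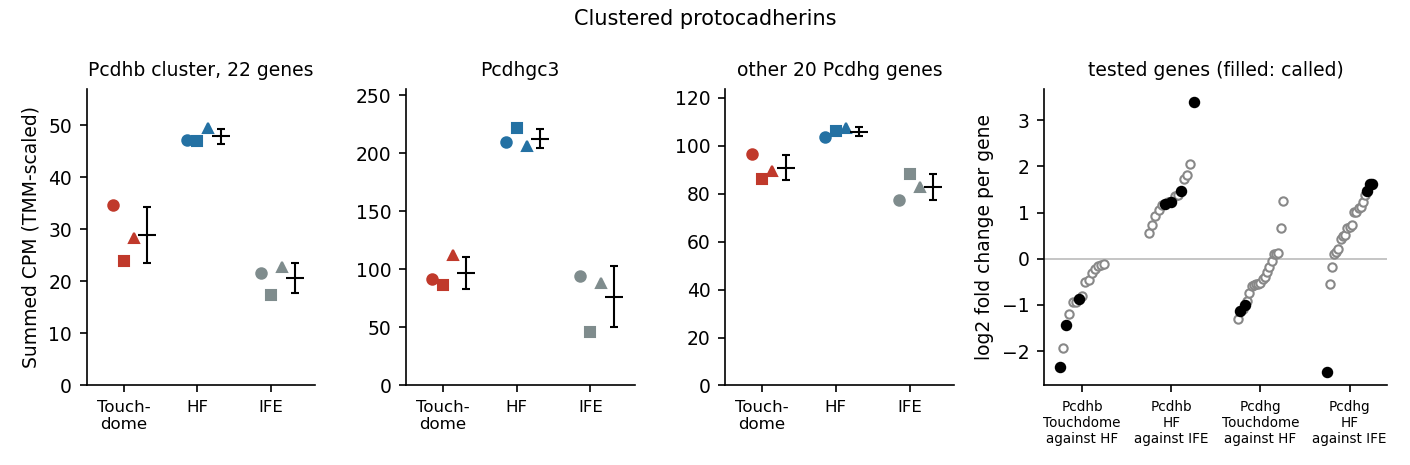
Clustered protocadherins. The left panels give summed CPM by library (linear axis from 0; circles, squares and triangles are replicates 1, 2 and 3, black bars the mean and SD) of the Pcdhb array, of Pcdhgc3 and of the other 20 Pcdhg genes, and the right panel gives the log2 fold change of each tested gene, filled where called; Pcdhgc3 lies at 206 to 222 CPM in HF, above its range of 46.4 to 112 CPM in Touchdome and IFE, while the other Pcdhg genes together differ less.

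The called members showed varied patterns across the 3 comparisons, and several patterns were held by 1 gene. The most common among those called, with 8 genes (Cdh11, Fat4, Pcdh1, Pcdh7, Pcdhb14, Pcdhb17, Pcdhga5 and Pcdhgc3), was higher in HF than in IFE and lower in Touchdome than in HF, with no call between Touchdome and IFE. Of these, Fat4 and Pcdhgc3 kept both calls in every alternative run, and each of the others lost a call in some alternative. A further 6 were higher in HF than in IFE with no other call. How many of all genes tested show these patterns was not counted. In Touchdome against HF 25.5% of members and 24.6% of all genes were called, and in HF against IFE 36.4% and 33.0%. Pcdh20 was higher in both Touchdome and HF than in IFE, and Celsr1 and Cdh4 were lower in HF than in both others, Cdh4 also being lower in Touchdome than in IFE. Pcdh18 was called higher in Touchdome than in HF alone, and Fat3 was called higher in Touchdome than in both others, calls that were lost in some alternatives.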

How the data were processed

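Per the labels' protocols, 50 ng of total RNA per library gave poly(A)-selected libraries read as 150 nt pairs. The authors deposited, for each library, a table with an expected count and a TPM value per Ensembl gene. RSEM 1.3.3, STAR 2.7.9a, DESeq2 1.38.2 and mm39 are named without roles, per the submitters' processing notes. Which annotation and strand setting were used is not given in the sources used here. Symbols and biotypes came from the reference annotation (52081 of 55357 rows matched), and 0 per-sample columns were unmapped.

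Expected counts were rounded to whole numbers and tested with edgeR 4.0.16 (R 4.3.3; robust quasi-likelihood, all 9 libraries in 1 fit, TMM, filterByExpr with a minimum count of 10 and total of 15), with Benjamini-Hochberg adjustment over 15046 genes and a threshold of 0.05. Library depths set the precision: Touchdome had 10735431 to 15477297 expected counts, HF 9295059 to 21358479 and IFE 14647371 to 28249763. CPM used TMM-scaled library sizes, fold changes are log2, and an SE is the fold change over the square root of its F statistic. Where a population had 0 counts, a fold was set against 3 counts over that population. The Touchdome against IFE test was also run on simulated counts, the outcome of which is not given here. Alternatives were DESeq2 1.42.0 and limma 3.58.1 on log2(TPM + 1) and log2(TPM + 0.1), other normalization and filters, each population pair alone, a replicate block, and leaving out each library. Same-numbered Touchdome and IFE libraries deviated together (correlation 0.146 to 0.203 over genes, against -0.128 to -0.0407 between unlike numbers). Deviations from means of 3 libraries tie these values together, so whether replicate numbers pair those populations is not settled. The main fit does not use the numbers. The labels do not say what a number marks.

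Values are given in every library for members called in some comparison with at least 1 TPM in a population and for the 2 highest members by TPM in each role; other members are given by means, ranges or counts. Of each partner list, at most 4 called genes with the smallest p are named. The members, lists and tests were chosen with earlier results of these data known.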

Additional observations from a re-analysis of the deposited data

How the results depend on the processing

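Of 37 member calls, 15 were kept under every alternative run, 22 were lost under at least 1, and 0 changed sign; over all results reported for members, 1093 of 1233 alternative values stayed on the same side of the threshold. In Touchdome against IFE, DESeq2 called 4 higher and 2 lower, where each of the 3 limma fits on log2 TPM called 1 higher and 0 lower; over all genes DESeq2 called 439 higher and 73 lower of 17442, edgeR 184 and 12 of 15046, and the limma fits 50 to 145 higher and 0 lower. In Touchdome against HF, leaving out a library gave 2 to 4 higher (2 without Touchdome replicate 1, 2 or 3 or HF replicate 3) and 4 to 11 lower (6 without Touchdome replicate 1, 5 without Touchdome replicate 2, HF replicate 2 or HF replicate 3, and 4 without HF replicate 1), and limma without a filter called 4 lower. In HF against IFE, leaving out a library gave 10 to 17 higher (10 without HF replicate 2) and 4 lower each time, and the 3 limma fits called 2 lower. The TPM fits also moved the median of all genes, to 0.07 to 0.15 (log2) in Touchdome against IFE and to 0.08 to 0.21 in HF against IFE (lowest without a filter), where the all-gene calls were 2571 higher and 2401 lower by edgeR and 2989 higher and 1209 lower on log2(TPM + 1). The causes were not tested.

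With each library left out, the Pcdhb sum ranged over 0.35 to 0.61 in Touchdome against IFE, -0.85 to -0.60 in Touchdome against HF and 1.10 to 1.29 in HF against IFE, and the Pcdhg sum over 0.13 to 0.29, -0.82 to -0.71 and 0.89 to 1.05. Without Pcdhgc3 the Pcdhg sum in Touchdome against HF was -0.22 (adjusted p = 0.141, edgeR), by construction without that gene's reads. With the replicate block, 2 members were higher and 1 lower in Touchdome against IFE, 3 and 9 in Touchdome against HF, and 17 and 4 in HF against IFE. The block changed no member call in Touchdome against IFE, where the calls over all genes rose from 184 higher and 12 lower to 282 and 67. In Touchdome against HF it lost Fat3 (adjusted p = 0.0634), Pcdhb7 (0.0549) and Pcdhga5 (0.0507, edgeR) and gained Pcdh19 (-1.40, adjusted p = 0.0317, edgeR). Same-numbered libraries were close to uncorrelated between Touchdome and HF (-0.0257 to 0.0701) and between HF and IFE (-0.00828 to 0.0592). Under the block the Pcdhb sum gave 0.49, -0.73 and 1.22 and the Pcdhg sum 0.24, -0.77 and 1.01 in Touchdome against IFE, Touchdome against HF and HF against IFE. A member needed at least 0.672 CPM in 3 libraries to be tested.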
